A study of Mus musculus with 6 samples.

Results

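The 39 genes described here drive or mark cell division. They were taken by symbol from the 24421 genes of the deposited table, and all 39 were found: 12 genes of S phase, the stage at which DNA is copied, 25 genes of mitosis and its approach, and 2 D-type cyclins. They form a list of symbols, with no threshold on a measured value, but the list was chosen with earlier results of these data known. The cells came from CD51-Flp mice given, after birth, an adeno-associated virus labelled AAV-GFAP-FSF-hM3D-mCherry. In both groups the virus carried hM3D, a receptor made to respond to the drug clozapine-N-oxide (CNO), with the red protein mCherry, under the promoter of the astrocyte gene GFAP. FSF is the usual short form for a stop cassette that Flp recombinase removes. The mice received CNO (3 libraries) or saline (3 libraries) 2 times a day from postnatal day 7 to postnatal day 21, and mCherry-positive cells were sorted from the cortex at day 21. A CNO group without the receptor was not analysed here, so the drug and the activated receptor cannot be told apart. The labels do not say whether a library is 1 animal or a pool.

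A dividing cell first passes the G1 checkpoint, where D cyclins with CDK4 or CDK6 inactivate the retinoblastoma protein and so release E2F factors. E2F then switches on the replication genes: the MCM helicase that unwinds DNA, the sliding clamp PCNA, and the enzymes that make deoxynucleotides. Genes for the spindle, the kinetochore and cytokinesis come on later, in G2 and mitosis, through factors that bind CHR and CCAAT elements. Astrocytes of the mouse cortex divide locally in the first weeks after birth and then largely stop, and most astrocytes of older cortex are out of the cycle.

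Values are normalized counts, reads per gene divided by a size factor of the library. The libraries held 3908076 reads in CNO 1 and between 12010901 and 19224186 in the other 5, so a single read counted as 4.23 normalized counts in CNO 1 but as 0.503 to 0.970 elsewhere. CNO 1 therefore stands apart in depth, and results are given with and without it where they rest on it. At least 1 read was found for 8618, 12820 and 10883 genes in CNO 1, 2 and 3, and for 14141 to 14491 genes in the saline libraries. All 12 astrocyte markers had reads in every library and together took 1.02% to 3.36% of reads. Oligodendrocyte markers took 11.1%, 24.5% and 18.8% of reads in CNO 1, 2 and 3, against 5.33% to 7.87% in saline, and their part in the results below was not tested. Because these are bulk samples, fewer cycling cells and less RNA per cycling cell cannot be told apart.

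Promoters of 4 genes that the results turn on are shown first, with the motifs through which replication and mitotic genes are known to be switched on. Each is the 250 bases before the start of the gene on the GRCm38.p6 assembly, from RefSeq, 5′ to 3′ on the strand of the gene, which is the minus strand for all 4. Capitals mark exact matches, on either strand, to an E2F motif (TTTGGCGC or TTTCCCGC), the CHR motif (TTTGAA) or the CCAAT box. Mcm6 (chr1:128359706-128359955) and Mcm3 (chr1:20820313-20820562) encode helicase subunits, Ckap2l (chr2:129297213-129297462) encodes a spindle protein, and Top2a (chr11:99024190-99024439) encodes a topoisomerase.
Mcm6: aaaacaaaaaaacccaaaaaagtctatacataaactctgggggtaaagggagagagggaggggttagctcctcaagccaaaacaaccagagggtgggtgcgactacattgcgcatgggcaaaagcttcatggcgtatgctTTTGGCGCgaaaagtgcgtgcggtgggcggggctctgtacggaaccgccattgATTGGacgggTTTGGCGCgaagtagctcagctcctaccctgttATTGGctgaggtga
Mcm3: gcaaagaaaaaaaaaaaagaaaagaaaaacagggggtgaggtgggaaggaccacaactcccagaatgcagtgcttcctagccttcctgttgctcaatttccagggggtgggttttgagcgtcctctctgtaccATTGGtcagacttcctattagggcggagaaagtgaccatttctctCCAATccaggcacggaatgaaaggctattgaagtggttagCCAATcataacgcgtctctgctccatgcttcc
Ckap2l: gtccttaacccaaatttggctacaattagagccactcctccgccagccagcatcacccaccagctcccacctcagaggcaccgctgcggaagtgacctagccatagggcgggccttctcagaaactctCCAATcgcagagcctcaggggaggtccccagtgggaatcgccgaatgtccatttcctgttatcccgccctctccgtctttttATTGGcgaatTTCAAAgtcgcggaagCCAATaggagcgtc
Top2a: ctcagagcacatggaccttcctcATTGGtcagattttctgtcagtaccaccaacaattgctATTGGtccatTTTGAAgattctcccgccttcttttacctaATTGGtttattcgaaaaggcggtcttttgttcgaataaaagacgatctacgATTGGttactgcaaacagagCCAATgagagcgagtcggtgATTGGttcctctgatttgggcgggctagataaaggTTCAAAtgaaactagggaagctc
The Mcm6 window holds 2 E2F matches, which begin 110 and 47 bases before the start, and 2 CCAAT boxes, and no CHR match. Mcm3 holds 3 CCAAT boxes only. Ckap2l holds 1 CHR match that begins 30 bases before the start, next to 3 CCAAT boxes, and Top2a holds 2 CHR matches (179 and 23 bases before the start) and 6 CCAAT boxes.

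Of the 39 genes, 31 had a promoter in the RefSeq table, with 33 windows in all. An E2F match was present in 3 of 11 S phase windows (27.3%; Mcm5, Mcm6 and Mcm7) and in 0 of 22 mitotic windows, against 1.30% of all 32851 windows of this length. A CHR match was present in 10 of 22 mitotic windows (45.5%) and 1 of 11 S phase windows (9.09%), against 15.99% of all windows. CCAAT was present in 29 of the 33 windows (87.9%), against 33.85% of all. The counts describe letters in these windows and were not tested. For E2F they cover TTTGGCGC and TTTCCCGC only. Similar strings were not searched, such as TTTCGCGC, which the mitotic Cdk1 window holds.

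The S phase genes had a median log2 difference between CNO and saline of -3.21. With quantile scaling it was -0.53, above the mitotic median of -0.66. The replicative helicase is a ring of the products of Mcm2 to Mcm7, loaded on origins before S phase. Summed over these 6 genes, the normalized counts were 0, 82.9 and 3.88 in CNO 1, 2 and 3 and 1498, 329.8 and 1014 in saline 3, 4 and 5. In reads, this was 0, 112 and 4 against 2642, 412 and 2015. Every CNO library lay below every saline library, and the saline mean (947 ± 587, SD, n = 3) was 32.8 times the CNO mean (28.9 ± 46.8). CNO 2 held nearly all of the CNO sum: without it the ratio was 488, and without any other library it lay between 21.8 and 43.4. As RPM, reads per 1000000 reads of the library total, the sums were 0, 5.83 and 0.234 against 152, 34.3 and 106, again without overlap. The 6 genes were set apart as a complex after their values had been seen, so no test is given for the sum.

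Single helicase genes followed the same order. Mcm3 (chr1:20802968-20820312) was at 0, 33.3 and 0 normalized counts in CNO and at 523, 168 and 261 in saline. Mcm6 (chr1:128331590-128359664) was at 0, 28.9 and 0 in CNO and at 583, 41.6 and 671 in saline, where saline 4 was far below the others. Mcm4 was at 0, 14.1 and 0 in CNO and at 207, 75.2 and 35.7 in saline. For all 3 genes CNO 1 and CNO 3 had no read, CNO 2 was the highest CNO library, and the groups did not overlap. The log2 differences, CNO minus saline on log2 of the normalized count plus 1, were -6.46 ± 2.11 (SE) for Mcm3, -6.37 ± 2.22 for Mcm6 and -5.08 ± 2.05 for Mcm4. None passed in limma after Benjamini-Hochberg adjustment over 13028 tested genes (adjusted p = 0.488, 0.488 and 0.496), and the exact permutation test gave p = 0.1 for each, the smallest that 3 against 3 allows. At the saline mean, CNO 1 would have held 75.1 reads of Mcm3, 102 of Mcm6 and 25.1 of Mcm4. It held none of these, and shares of genes without a read in that library are given further on.

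The other 3 helicase genes had fewer reads. Mcm7, whose exons overlap other genes including Cops6 and Ap4m1 on the other strand, was at 0, 4.44 and 3.88 in CNO and at 20.4, 31.2 and 29.2 in saline (log2 difference -3.21 ± 1.82, limma adjusted p = 0.578). The groups did not overlap, but its saline mean was worth only 6.37 reads in CNO 1. Mcm5 had 3 reads in all of CNO and 3, 17 and 33 in saline, and missed the minimum mean of 10 for a test. Mcm2 had 288 reads in saline 3 and none in any other library, so its saline value rests on 1 library.

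**Figure D1:**
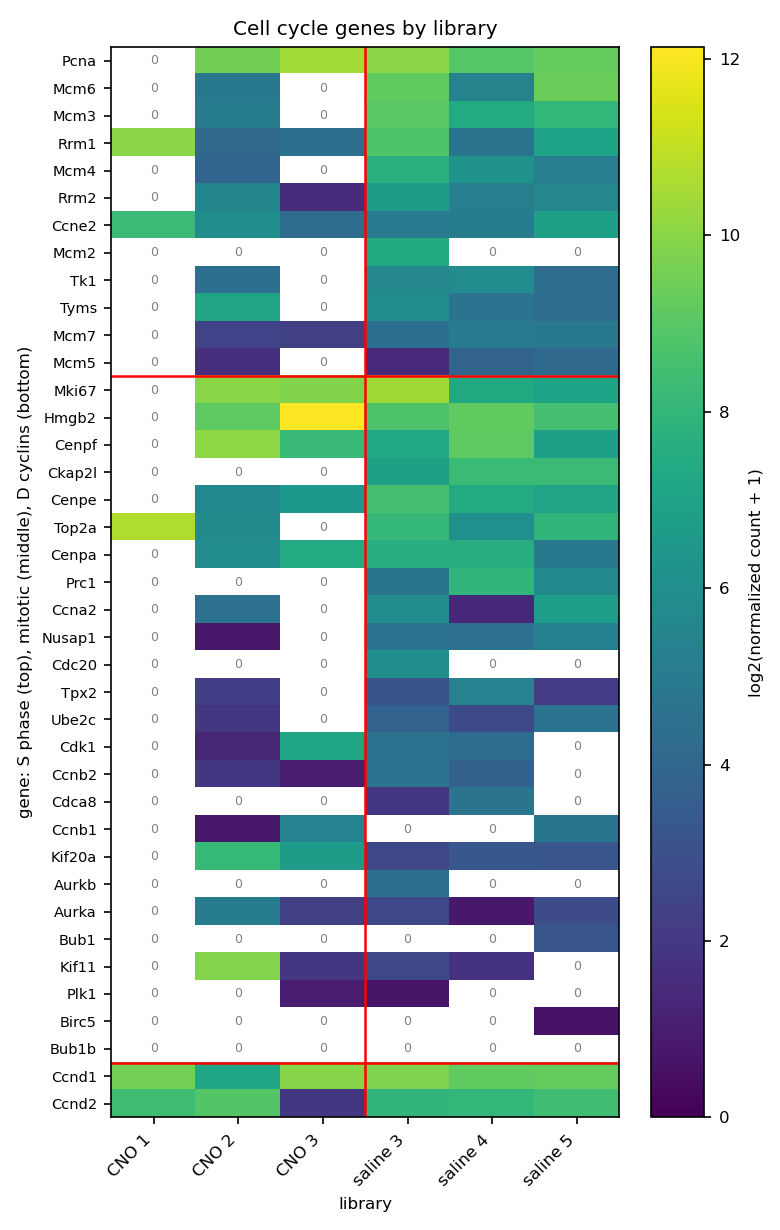
Heat map of log2(normalized count + 1) for the 39 genes (rows; S phase, mitotic and D cyclin genes from top to bottom) in the 6 libraries (columns; the vertical red line parts CNO from saline). All Mcm rows are at 0 in CNO 1, and that library has reads for 5 of the 39 genes.

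Pcna, the sliding clamp that holds the polymerase on DNA, did not follow the helicase. It was at 0, 752 and 1407 in CNO and at 1040.2, 495 and 623 in saline, so it had no read in CNO 1 and was highest of all libraries in CNO 3. The group means were 719 ± 704 and 719.6 ± 285 (SD, n = 3), while the log2 difference was -2.75 ± 2.20 (limma adjusted p = 0.665). Without CNO 1 the log2 difference was 0.59. As RPM the means were 45.9 ± 42.8 in CNO and 74.0 ± 28.1 in saline, so their near equality holds for the normalized counts only. The saline mean would have given 170.3 reads in CNO 1. Pcna was the most abundant of the 39 genes per length in saline, with an RPKM (RPM per kilobase of exon) of 30.8 ± 11.7, and named pseudogenes of it may share its reads.

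The nucleotide enzymes were uneven between libraries. Rrm2, the regulated small subunit of ribonucleotide reductase, was at 0, 46.6 and 1.94 in CNO and at 101, 35.2 and 47.8 in saline. Tk1, the salvage enzyme thymidine kinase, was at 0, 20.7 and 0 in CNO and at 48.8, 56.0 and 19.1 in saline. Tyms, which makes thymidylate, was at 0, 135 and 0 in CNO and at 57.3, 24.0 and 19.1 in saline. For Rrm2 and Tk1 only CNO 2 reached the saline range, and for Tyms CNO 2 was the highest of the 6 libraries. Rrm1, the large subunit of the reductase, went the other way in CNO 1: 1031, 16.3 and 20.4 in CNO and 450.1, 24.8 and 131 in saline. Ccne2, the E-type cyclin that opens S phase, was likewise highest in CNO 1, at 313, 62.2 and 19.4 in CNO and 30.6, 33.6 and 114 in saline. The groups overlapped for all 5 genes, and their limma adjusted p lay between 0.558 and 0.914.

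**Figure D2:**
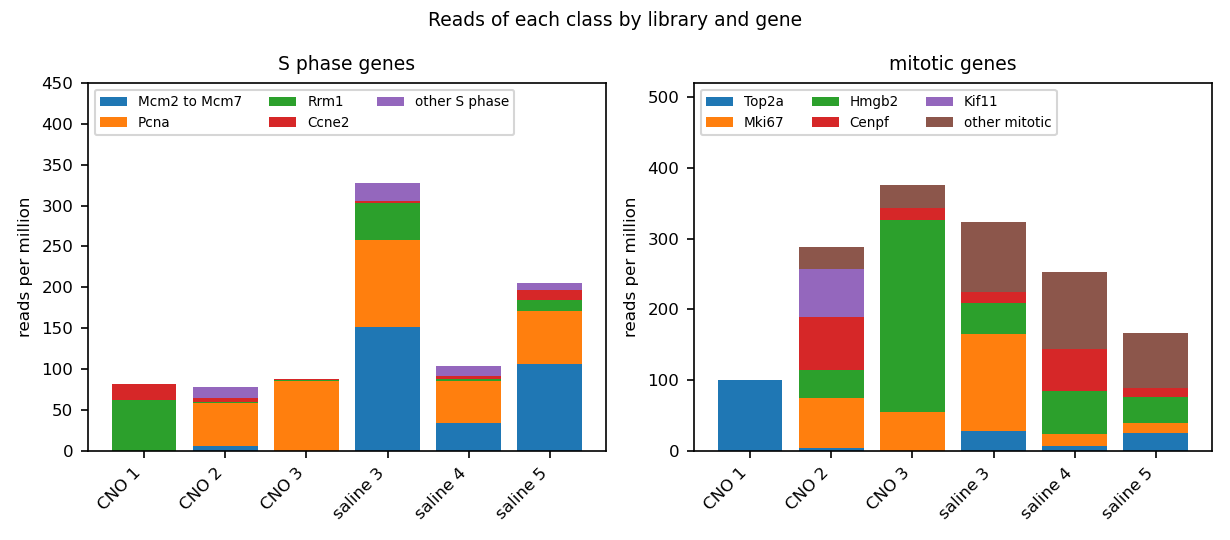
RPM (reads per 1000000 reads of the library) of the S phase genes and the mitotic genes (stacked bars, 1 bar per library, coloured by gene or gene group). The Mcm2 to Mcm7 segment reaches 5.83 in CNO and 34.3 to 152 in saline, and 1 or a few genes make up most of each CNO bar.

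Summed over the 12 S phase genes, RPM was 81.4, 78.4 and 87.5 in CNO and 327, 104 and 205 in saline, without overlap. On the normalized counts the same sums were 1344, 1116 and 1452 against 3226, 999 and 1969, and the groups overlapped. Without Mcm2 to Mcm7 RPM was 81.4, 72.6 and 87.3 against 175, 69.6 and 99.6, which overlap. One gene dominated the sum in CNO 1 (Rrm1, 76.7%) and CNO 3 (Pcna, 96.9%).

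Among the 25 mitotic genes the values split. Ckap2l, Prc1, Nusap1 and Cenpe lay below saline in every CNO library, while others were high in 1 or 2 CNO libraries. Ckap2l (chr2:129268210-129297212), which binds spindle microtubules, was at 0 in every CNO library and at 117, 311 and 312 in saline. Prc1 (chr7:80294450-80316259), which bundles the microtubules of the central spindle before cytokinesis, was also at 0 in every CNO library and at 25.5, 243 and 50.3 in saline. Both were without a read in CNO where the saline mean would have given 58.3, 333 and 254 reads of Ckap2l, and 25.1, 143 and 109 reads of Prc1, in CNO 1, 2 and 3.

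With 3 reads per library as the limit that a count of 0 allows, which averages 5.94 normalized counts over CNO, Ckap2l was at least 41.5-fold lower in CNO and Prc1 at least 17.9-fold lower. Saline 4 set most of the Prc1 mean, and without it Prc1 was at least 6.39-fold lower. Without CNO 1, whose reads weigh most in that limit, the bounds were 96.1 and 41.4. These bounds cover counting error in CNO only and take the saline mean as fixed. Of all genes with a saline mean worth at least 10 reads, 27.3%, 11.8% and 22.2% had no read in CNO 1, 2 and 3. In limma the log2 differences were -7.82 ± 1.88 and -6.11 ± 1.82, and neither passed (adjusted p = 0.488 for both). DESeq2 on the recovered reads called both lower (adjusted p = 2.48e-05 and 0.0125), and edgeR did not (adjusted p = 0.535 for both). Over all settings the adjusted p ran from 2.48e-05 to 0.814 for Ckap2l and from 0.0125 to 0.814 for Prc1. The exact permutation p was 0.1 for both. Prc1 overlaps an exon of Rccd1 on the other strand and Ckap2l one of Gm14024. The sources used here do not say how strand was handled, and such reads could have gone to either gene.

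Nusap1, a microtubule binder at the chromosomes, was at 0, 0.740 and 0 in CNO, which is 1 read in all, and at 23.2, 23.2 and 38.8 in saline (log2 difference -4.57 ± 1.63, limma adjusted p = 0.488). Cenpe, a kinetochore motor, was at 0, 49.6 and 86.3 in CNO and at 379.8, 170.5 and 136 in saline (log2 difference -3.66 ± 2.03, limma adjusted p = 0.572). Neither gene overlapped between groups, and Nusap1 shares exon sequence with Oip5 on the other strand. The saline mean was worth 54.1 reads of Cenpe and 6.72 of Nusap1 in CNO 1.

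**Figure D3:**
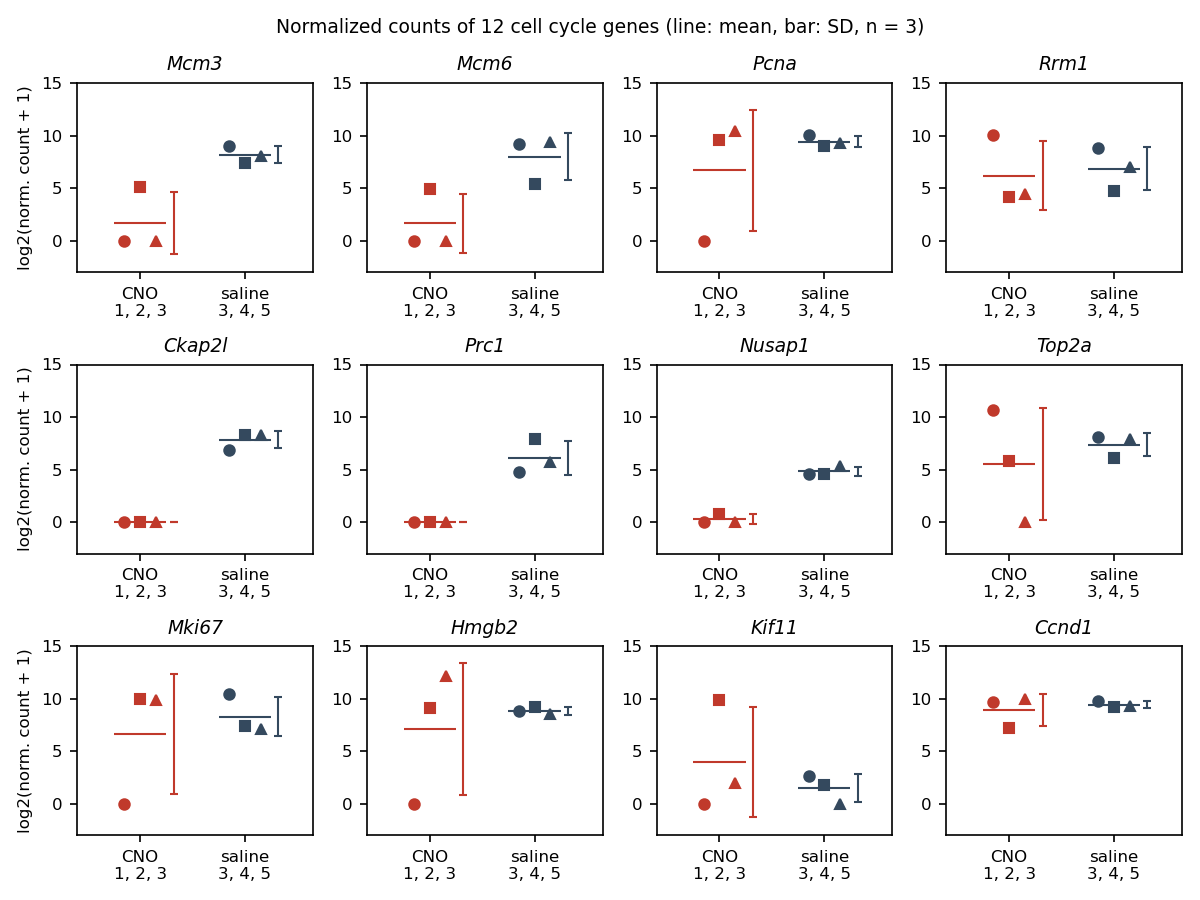
log2(normalized count + 1) of 12 genes in each library (circle, square and triangle in library order; line, mean; bar, SD, n = 3), CNO in red and saline in blue-grey. Mcm3, Mcm6, Ckap2l, Prc1 and Nusap1 do not overlap between groups, while Rrm1 and Top2a are highest in CNO 1 and Hmgb2 and Kif11 are highest in CNO 3 and CNO 2.

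The common proliferation markers did not separate the groups. Mki67, which encodes the Ki-67 coat of mitotic chromosomes, was at 0, 1013 and 901 in CNO and at 1354, 163 and 132 in saline. Top2a, which untangles replicated DNA, was at 1652, 54.8 and 0 in CNO and at 272, 68.0 and 244 in saline. In CNO 1 Top2a had 391 reads and was the only mitotic gene with a read, whereas CNO 3 had 929 reads of Mki67 and none of Top2a. Top2a was thus highest where Mki67 was at 0, and Mki67 was high where Top2a was at 0. Hmgb2, a chromatin protein abundant in cycling progenitors, was at 0, 555 and 4503 in CNO and at 434, 584 and 358 in saline. Its ratio of means was 3.67, but its log2 difference was -1.73 ± 2.37 (limma adjusted p = 0.783), so the sign depends on the scale.

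The engine of mitotic entry was at low levels in both groups. Cdk1, the mitotic kinase, was at 0, 1.48 and 139 in CNO and at 23.8, 18.4 and 0 in saline. Its partner Ccnb1 was at 0, 0.740 and 40.7 in CNO and at 0, 0 and 25.7 in saline. Ccnb2 was at 0, 2.96 and 0.970 against 23.2, 12.8 and 0. In CNO these genes were near 0 except Cdk1 and Ccnb1 in CNO 3. Ccna2, the cyclin of S phase and G2, was at 0, 22.9 and 0 in CNO and at 56.7, 1.60 and 107 in saline. The groups overlapped for all 4.

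Kinetochore and motor genes other than Cenpe overlapped too. Cenpa, the histone variant of centromeres, was at 0, 57.0 and 172 in CNO and at 198, 188 and 28.7 in saline. Cenpf, a kinetochore protein of G2, was at 0, 1077 and 286 in CNO and at 152, 562 and 115 in saline. Kif11, the motor that separates the spindle poles, was at 0, 949 and 2.91 in CNO and at 5.10, 2.40 and 0 in saline. Kif20a, a motor of cytokinesis, was at 0, 275 and 105 in CNO and at 5.10, 8.80 and 8.56 in saline. Kif11 was high in CNO 2 alone, and Kif20a was above every saline library in CNO 2 and CNO 3. The 0 of both genes in CNO 1 carries little weight, because 3 reads there are worth 12.7 normalized counts, above their saline values. The log2 differences were 2.49 ± 2.48 and 1.89 ± 2.39 (limma adjusted p = 0.712 and 0.764).

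The regulators of exit and of the spindle checkpoint were scarcely detected. Bub1b had 0 reads in all 6 libraries, Plk1 had 1 read in each of 2 libraries, and Birc5 had 1 read in saline 5. Bub1 had reads in saline 5 alone (17 reads), Aurkb in saline 3 alone (37 reads) and Cdc20 in saline 3 alone (113 reads). Cdca8 had reads in saline 3 and 4 (5 and 31). These 7 genes encode mitotic and checkpoint kinases, parts of the chromosomal passenger complex and an activator of the anaphase-promoting complex. All but Cdc20 missed the minimum mean for a test. Cdc20 gave a log2 difference of -2.01 ± 1.72 (limma adjusted p = 0.673), which rests on saline 3. Ube2c and Tpx2 each had reads in all 3 saline libraries (7 to 47 and 7 to 51) and, in CNO, in CNO 2 alone (4 and 5), with a mean too low for a test. Aurka had 45 and 4 reads in CNO 2 and 3 and 1 to 12 in saline.

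The 2 D cyclins, which act in G1 and are also expressed in resting glia, had reads in every library. Ccnd1 was at 786, 143 and 991 in CNO and at 878, 568 and 609 in saline (log2 difference -0.48 ± 0.89, limma adjusted p = 0.843). Ccnd2 was at 325, 471 and 2.91 in CNO and at 252, 263 and 339 in saline (log2 difference -1.74 ± 1.76, limma adjusted p = 0.714). The groups overlapped for both, although CNO 2 was low for Ccnd1 and CNO 3 had 3 reads of Ccnd2. The only other genes of the 39 with a read in every library were Rrm1 and Ccne2.

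Of the 28 genes that could be tested (11 S phase, 15 mitotic, 2 D cyclins), limma called 0 lower, against 0% of all 13028 tested genes, and 0 higher, against 0.0154%. At an unadjusted limma p under 0.05, 6 of 28 (21.4%) were lower: Mcm3, Mcm4, Mcm6, Nusap1, Prc1 and Ckap2l. The same share over all tested genes was 7.25%. Without saline 3 the count was 3. None was higher at that p, against 2.28%. The share lower depends on level. At a mean of 10 to 50 it was 1 of 10, against 15.6% of all tested genes of that level. From 50 to 300 it was 5 of 12, against 8.14%, and from 300 to 2000 it was 0 of 6, against 2.61%. DESeq2 called 2 lower of the 20 genes to which it gave an adjusted p, against 1.56% of all such genes, and 0 higher, against 0.586%. edgeR and limma-voom each called 0.

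Every CNO library lay below every saline library for 8 of the 28 genes (28.6%), against 12.5% of all tested genes. These were Mcm3, Mcm4, Mcm6 and Mcm7 among 11 S phase genes (36.4%) and Cenpe, Nusap1, Prc1 and Ckap2l among 15 mitotic genes (26.7%). The reverse order was found for 0 of the 28, against 4.57%. As RPM, a scale chosen after seeing the data, the order held for 10 of the 28 (35.7%), against 21.3% of all tested genes, and the reverse for 0, against 1.13%. The share on normalized counts depends on level. Among genes with a mean of 10 to 50, it was 2 of 10, against 22.7% of all tested genes of that level. From 50 to 300 it was 6 of 12, against 14.9%, and from 300 to 2000 it was 0 of 6, against 6.05%. With CNO 1 left out, CNO 2 and 3 lay below every saline library for 5 S phase and 5 mitotic genes, against 18.3% of all tested genes. They lay above for 1 gene, Kif20a, against 10.9%.

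The median log2 difference was -3.21 for the S phase genes and -1.88 for the mitotic genes. It was -1.11 for the D cyclins and -0.89 for all tested genes. Tested genes between the lowest and highest mean of the S phase genes had a median of -1.46, and those in the range of the mitotic genes -1.32. These ranges do not match level. The median level was 55.3 for the S phase genes and 138 for their range, and 107 and 150 for the mitotic genes. At a mean of 10 to 50, the median of the members was -2.86, against -2.33 for all tested genes. It was -2.96 against -1.71 at 50 to 300, and -1.70 against -0.13 at 300 to 2000. The mitotic median turned positive with edgeR (0.14) and DESeq2 (0.22), where the S phase median was -2.56 and -2.53. On the ratio of group means, 8 of 11 S phase genes lay below 1 (median ratio 0.167), but only 7 of 15 mitotic genes did (median ratio 1.16). The medians for all genes in the same ranges were 0.825 and 0.848. As RPM, 9 of 11 S phase genes lay below 1 (median ratio 0.114) and 9 of 15 mitotic genes did (median ratio 0.747). All genes in the same ranges then had medians of 0.520 and 0.535. On normalized counts, the sign of the log2 difference and that of the ratio differed for 7 of the 28 genes.

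Detection was counted apart from the fitted values. At least 1 read was found for 2, 11 and 5 of the 12 S phase genes in CNO 1, 2 and 3, and for 12, 11 and 11 in saline. For the 25 mitotic genes this was 1, 16 and 12 against 21, 18 and 17. With every library brought to the lowest total, the expected number of all 39 genes with a read was 5, 24.9 and 15.2 in CNO and 33.1, 29.5 and 28.9 in saline. Over all genes of the table the expected share with a read was 35.3%, 49.2% and 40.2% in CNO and 54.9% to 56.8% in saline. CNO 2 thus lay nearest to saline in both, and CNO 1 farthest.

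**Figure D4:**
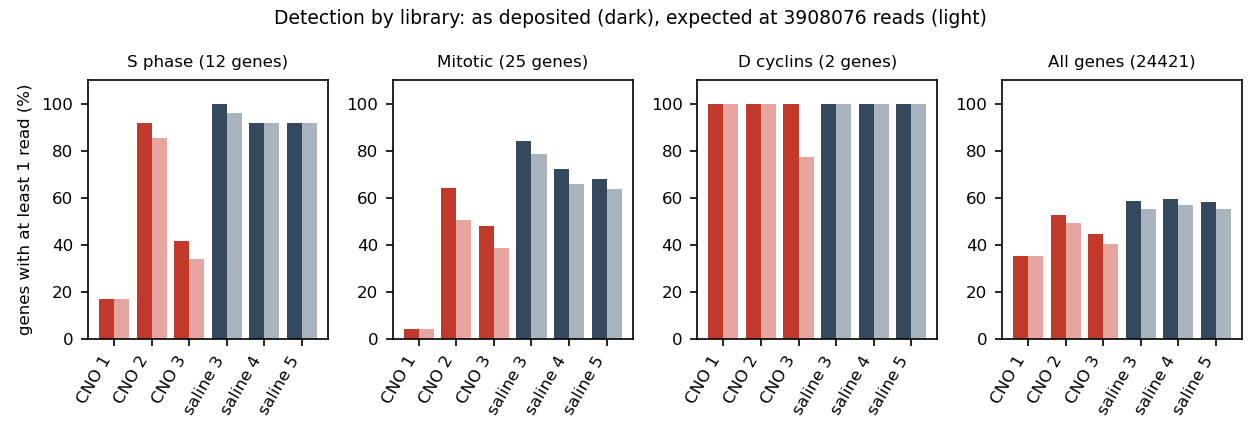
Share of genes with at least 1 read in each library (dark bars) and the share expected at 3908076 reads (light bars), CNO in red and saline in blue-grey, for the S phase, mitotic and D cyclin genes and all genes of the table. CNO 1 has a read for 2 of 12 S phase genes and 1 of 25 mitotic genes, while the saline libraries have 11 or 12 and 17 to 21.

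Genes without a read were also counted against their saline level. The saline mean was worth at least 10 reads in CNO 1 for 19 of the 39 genes, and 14 of these (73.7%) had no read there, against 27.3% of the 10722 such genes in the table. In CNO 3 it was 15 of 29 genes (51.7%), against 22.2%, and in CNO 2 it was 5 of 32 (15.6%), against 11.8%. No test is given for these shares, since genes of 1 library are not replicates. Genes pass here through the saline mean alone, which favours genes high in saline, and Mcm2 passes through saline 3 alone. The shares are not matched for level either. Over all tested genes, zeros in CNO 1 ran from 79.6% at a mean of 10 to 50 to 7.52% at 300 to 2000. All 5 genes with a read in CNO 1 had at least 74 reads. Over all genes of the table, 6821 of the 8618 with a read in that library had at least 10 reads.

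**Figure D5:**
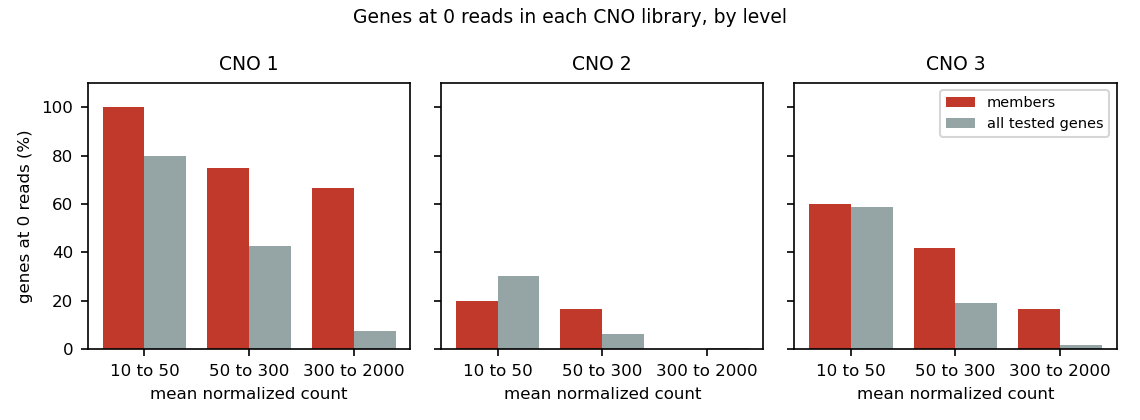
Share of tested genes at 0 reads in CNO 1, 2 and 3 (panels) by mean normalized count, for the members described here (red) and all tested genes (grey). In CNO 1 the shares at a mean of 300 to 2000 are 66.7% of 6 members and 7.52% of all tested genes. They are 75% of 12 and 42.6% at 50 to 300, and 100% of 10 and 79.6% at 10 to 50. From the lowest to the highest range, CNO 2 has 20%, 16.7% and 0% of members, against 30.3%, 6.39% and 0.453%. CNO 3 has 60%, 41.7% and 16.7%, against 58.9%, 19.2% and 1.70%.

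Of the 39 genes, 9 had 0 reads in all CNO libraries, and 6 of these were at 0 in 2 or 3 saline libraries as well. All 3 saline libraries had reads for 27 genes, of which 2 (7.41%; Prc1 and Ckap2l) were at 0 throughout CNO, against 4.02% of all such genes. The CNO libraries also differed more from each other. The median coefficient of variation was 164% over 24 genes in CNO and 65.4% over 28 genes in saline, beside 118% and 61.1% for tested genes in the same range of means. One library held over 90% of the CNO sum for 13 of 24 genes (54.2%, against 34.1%), and in saline for 3 of 28 (10.7%, against 6.34%). Across the 39 genes the rank correlation was 0.73 to 0.79 between saline libraries, 0.64 between CNO 2 and 3, and 0.20 to 0.41 between CNO 1 and any other. Against the saline libraries it was 0.56 to 0.59 for CNO 2 and 0.32 to 0.39 for CNO 3. Over all tested genes it was 0.80 to 0.82 between saline libraries, 0.67 between CNO 2 and 3, and 0.56 to 0.66 between CNO 1 and any other. Against saline it was then 0.73 to 0.75 for CNO 2 and 0.69 to 0.70 for CNO 3. These correlations are over genes, which share a library and its depth.

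Other genes of the same pathways gave a mixed order. At an unadjusted limma p under 0.05, 7.25% of all tested genes lay lower in CNO and 2.28% lay higher. Over the same genes, 12.5% had every CNO library below saline and 4.57% above, and the median was -0.89. Of 48 further replication genes, 36 were tested: 7 were lower (19.4%) and 0 higher, 10 had every CNO library below saline (27.8%) and 1 above (2.78%), and the median was -1.79. Prim2, the large primase subunit, was at 0, 7.40 and 0 in CNO and at 340.1, 235 and 695 in saline. Its log2 difference was -7.56 ± 1.96 (limma adjusted p = 0.488, DESeq2 adjusted p = 1.83e-04). Dbf4, the activator of the origin kinase Cdc7, was at 0, 3.70 and 0 in CNO and at 98.6, 23.2 and 99.1 in saline. Pola2, of the same primase complex as Prim2, was at 0, 3.70 and 0.970 against 101, 56.8 and 19.1, and Gins1, of the helicase complex, was at 0 in CNO and at 43.1, 3.20 and 55.4 in saline. These 4 had the smallest p of their list and did not overlap between groups. limma, edgeR and limma-voom called 0 genes of the list, and DESeq2 called Prim2.

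Of 48 further mitotic genes, 28 were tested: 3 were lower (10.7%) and 2 higher (7.14%) by the same unadjusted p, against 7.25% and 2.28% of all genes. Every CNO library lay below saline for 2 (7.14%, against 12.5%) and above for 1 (3.57%, against 4.57%), and the median was -1.06. Ckap5, a microtubule polymerase also used by cells that do not divide, was at 10527, 3072 and 9531 in CNO and at 3042, 2047 and 2587 in saline. Its log2 difference was 1.42 ± 0.52 (limma adjusted p = 0.488). As RPM, Ckap5 was at 637, 216 and 574 in CNO and at 309, 213 and 270 in saline. The groups then overlapped, so its separation depends on the scaling. Anln, a scaffold of cytokinesis, was at 900.1, 2732 and 5243 in CNO and at 444, 1026 and 702 in saline. The groups overlapped for Anln, because CNO 1 lay below saline 4, and they overlapped as RPM too. Whether the larger share of oligodendrocyte reads in CNO had a part in the Anln values was not tested. Foxm1, the factor that drives many mitotic genes, was at 541, 3.70 and 21.3 in CNO and at 20.98, 30.4 and 0.503 in saline, so it was high in CNO 1 alone. Ckap2 (2 reads in all of CNO) and Espl1, the cohesin-cleaving separase (none), had 11 to 339 and 1 to 292 reads in the saline libraries. limma, edgeR and limma-voom called 0 genes of the list, and DESeq2 called Mad2l1 higher, a gene named here after its values were seen.

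Of 23 G1 regulators, E2F factors and pocket proteins, 20 were tested: 1 was lower and 0 higher by the same unadjusted p, against 7.25% and 2.28% of all genes. Every CNO library lay below saline for 2 of the 20, against 12.5%, and above for 0, against 4.57%, and the median was -1.91. E2f8, an atypical E2F that represses replication genes and is itself made in S phase, was at 0, 0.740 and 0 in CNO and at 639, 58.4 and 117 in saline. It had 1 read in all of CNO, and DESeq2 called it lower (adjusted p = 1.78e-04) while limma did not (adjusted p = 0.488). Cdk6 was at 0, 34.0 and 46.6 in CNO and at 86.7, 178 and 200.3 in saline, without overlap. Cdk4 was at 0, 99.1 and 153 against 194, 106 and 228. Rb1 was at 8904, 2786 and 1937 in CNO and at 3685, 1821 and 2645 in saline, and E2f1 was at 0, 53.3 and 0 against 4.54, 192 and 14.6. The groups overlapped for Cdk4, Rb1 and E2f1 on normalized counts, but Cdk4 did not overlap as RPM. limma, edgeR and limma-voom called 0 genes of this list.

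Genes that hold cells out of the cycle gave no call. Of 16 CDK inhibitors and p53 targets, 14 were tested: 2 were lower (14.3%) and 0 higher by the same unadjusted p, against 7.25% and 2.28% of all genes. Every CNO library lay below saline for 1 and above for 1 (7.14% each, against 12.5% and 4.57%), and the median was -1.07. limma, DESeq2, edgeR and limma-voom called 0. Cdkn1a, which encodes p21, was at 579, 448 and 621 in CNO and at 1722, 507 and 1284 in saline, and Cdkn1b, which encodes p27, was at 423, 257 and 23.3 against 418, 288 and 233. Both overlapped between groups on normalized counts. Cdkn1a did not overlap as RPM, at 35.1, 31.5 and 37.4 in CNO and 175, 52.8 and 134 in saline. Ccng1, a p53 target, was at 4294, 4100.5 and 4266 in CNO and at 2873, 2273 and 1849 in saline (log2 difference 0.88 ± 0.43, limma adjusted p = 0.550). On normalized counts it was above every saline library in each CNO library. As RPM it was at 260.0, 288 and 257 in CNO and at 291, 236 and 193 in saline, so the groups overlapped and the separation depends on the scaling. Cdkn2c, which encodes the CDK4 and CDK6 inhibitor p18, was at 0, 3.70 and 6.79 in CNO and at 57.3, 51.2 and 83.0 in saline, without overlap. Cdkn1c had no read in CNO or in saline 3.

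Markers of some other cell types were set beside these genes. Over 10 markers of oligodendrocyte precursors, the share of reads was 0.0411%, 0.0299% and 0.0722% in CNO and 0.0416%, 0.0217% and 0.0660% in saline, with 1, 1 and 2 of the markers at 0 in CNO and none in saline. Over 12 markers of microglia and macrophages it was 0.860%, 0.639% and 1.35% against 1.17%, 1.27% and 1.58%. The groups overlapped on both shares, and on the mean log2(normalized count + 1) of both lists. Over 8 markers of neuroblasts and neural progenitors this mean was 2.86, 3.59 and 4.31 in CNO and 4.74, 4.84 and 4.89 in saline, without overlap. Of the 8, 6, 4 and 3 were at 0 in CNO, against 1 in each saline library. Zeros were also more common in CNO over all tested genes, at 35.2%, 8.93% and 20.1% against 3.39% to 3.88% in saline. For tested genes with a mean of 10 to 50 they were 79.6%, 30.3% and 58.9% against 12.9% to 14.4%. The share of reads of these 8 markers was 0.0335%, 0.0183% and 0.00660% in CNO and 0.00962%, 0.00671% and 0.0138% in saline, which overlap. The lymphocyte marker list took 0.0135%, 0.0111% and 0.0448% of reads in CNO and 0.0430%, 0.0522% and 0.0544% in saline, where CNO 3 lay above saline 3. Its mean log2 value was 1.82, 1.67 and 1.85 in CNO and 2.04, 2.21 and 1.90 in saline, without overlap. Of that list, Cd3e, Cd2, Cd79a and Nkg7 were at 0 in all libraries. Over 8 endothelial markers the share of reads was 0.0132%, 0.00207% and 0.0385% in CNO and 0.00780%, 0.0191% and 0.0201% in saline. Their mean log2 value was 5.31, 3.72 and 7.63 in CNO and 5.88, 7.32 and 6.41 in saline. The groups overlapped on both endothelial measures. The part of all these cell types in the values of the division genes was not tested.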

How the data were processed

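RNA of cells sorted as mCherry-positive was sequenced in 6 libraries, 3 per group, made from 10 ng of RNA each per the labels' protocols. The deposited values are normalized counts, a signal, that is, read counts after division by the size factor of their library by the authors. The submitters' processing notes name build mm10 and, as tools, STAR 2.5.0a, DESeq2 1.20.0, Trimmomatic 0.4, MultiQC 0.9 and FastQC 0.10.1. How reads were counted, with which annotation and strand setting, is not given in the sources used here. Reads of genes that share exons (15 of the 39) or have a named pseudogene (4, namely Pcna, Tyms, Ccnb1 and Ccnb2) are therefore uncertain. The 6 columns were matched to libraries by name, and 0 columns were left over.

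In each library 100% of values were whole multiples of 1 step (tolerance 1e-06), so division by that step recovered whole reads. limma 3.58.1 in R 4.3.3 was run on log2(normalized count + 1) for 13028 genes (mean of 10 or more), with a variance trend, 2-sided, and Benjamini-Hochberg adjustment at 0.05. Fold changes are differences of mean log2 values. The pseudocount shrinks differences of low genes, while a 0 in 1 library can make the log2 difference larger than the ratio of means or of the other sign. edgeR 4.0.16, DESeq2 1.42.0 and limma-voom were run on the recovered reads. Since libraries may share animals or a pool, p-values reflect the spread between libraries, which may be technical. Reads carry no molecular identifiers, so floors of 3 reads cover counting error only.

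All 39 genes could be named, plus up to 4 genes of smallest limma p from each of 4 other lists and Cdkn1a, Cdkn1b, Cdk4, Rb1, Foxm1 and E2f1. The members and lists were chosen with earlier results of these data known. Coordinates are from GENCODE mouse release M21 on GRCm38, the assembly of mm10, and promoters from RefSeq. Lengths behind reads per kilobase are unions of GENCODE exons. Alternatives were other pseudocounts, filters, scalings, weights and tools, and each library left out. The script was tested on simulated data. Figures were drawn with matplotlib 3.10.9.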

Additional observations from a re-analysis of the deposited data

How the results depend on the processing

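The count of 6 genes lower at an unadjusted p under 0.05 became 3 with quantile scaling and 0 when only genes read in all 6 libraries were kept (4 of the genes), and ran from 3 (without saline 3) to 9 with 1 library left out. The count of 0 genes called lower became 2 with DESeq2, Ckap2l and Prc1, and stayed 0 in every other setting run. The S phase median of -3.21 became -0.53 with quantile scaling and -0.056 with genes read in all 6 libraries (2 genes), and ran from -4.95 to -2.45 with 1 library left out. The mitotic median of -1.88 became 0.14 with edgeR and the same filter and 0.22 with DESeq2, and ran from -3.36 to -0.85 with 1 library left out. No mitotic gene was read in all 6, so that filter gave no value. The 8 genes without overlap were 8 with TMM scaling and 10 on RPM, and 8 to 12 with 1 library left out. The same share over all tested genes was 12.5% on normalized counts, 21.3% on RPM and 18.3% without CNO 1. For TMM and the other libraries left out it is not given, so those counts cannot be set against all genes. The RPM scale and the folds with a library left out were chosen after seeing the data. On RPM the median ratio of means over all tested genes was 0.621. The 9 genes at 0 in all CNO libraries were 9 to 19 with 1 library left out (19 without CNO 2), and 12.2 were expected at the lowest total. The median over all tested genes was -0.89, and it was -1.03 with TMM, -0.08 with quantile scaling and 0.0044 with DESeq2, so directions of single genes are relative to it.

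Log2 differences that changed sign were those of Cdk1 with a pseudocount of 8 (0.24) and with limma-voom (0.80). With quantile scaling they were Mcm7 (0.32), Rrm1 (0.20), Tyms (0.68), Cdk1 (2.35) and Cdc20 (0.30). With edgeR and the same filter they were Rrm1 (0.55), Tyms (0.38), Mki67 (0.14), Top2a (1.29), Cdk1 (1.67), Cenpf (0.67) and Hmgb2 (1.82). Without a filter edgeR gave Pcna (0.031), Rrm1 (0.62), Tyms (0.48), Mki67 (0.25), Top2a (1.34), Cdk1 (1.78), Cenpf (0.77) and Hmgb2 (1.91). DESeq2 gave Pcna (0.0018), Rrm1 (0.82), Tyms (0.44), Mki67 (0.22), Top2a (1.55), Cdk1 (1.74), Cenpf (0.72) and Hmgb2 (1.88). With 1 library left out, the range was -4.64 to 0.59 for Pcna, -2.59 to 0.36 for Rrm1, -0.48 to 1.49 for Ccne2, -3.36 to 1.63 for Mki67, -4.48 to 0.87 for Top2a, -1.64 to 1.25 for Cdk1 and -0.31 to 1.51 for Ccnb1. It was -3.67 to 1.37 for Cenpf, -4.26 to 1.81 for Hmgb2, -1.001 to 0.39 for Ccnd1 and -2.99 to 0.47 for Ccnd2. Pcna, Mki67, Cenpf and Hmgb2 lay above 0 without CNO 1 alone, and Top2a and Ccnd2 without CNO 3 alone. None of these was called, and the causes were not tested. Depth limits genes whose saline level is worth only a few reads in CNO 1, among them Mcm5, Mcm7, Nusap1, Kif11 and Kif20a. No paired analysis was possible because the groups share only replicate number 3.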
